A study of Bos taurus with 16 samples.

Results

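The genes described here are those that granulosa and cumulus cells switch on after the preovulatory surge of luteinising hormone (LH): TNFAIP6, AREG, EREG, PTX3, HAS2, ADAMTS1, RGS2, RUNX1, RUNX2 and SULT1E1. They were chosen by name from this 10-gene list, and 8 of the 10 had counts among the 20629 features of the files (genes, or transcripts without a gene symbol). EREG and RUNX2 were not analysed here. RNA sequencing had been carried out on 16 bovine libraries, 7 labelled treatment and 9 labelled control, from granulosa cells aspirated from the dominant follicle of lactating Holstein cows at 63 ± 3 days after calving. Treatment is not defined in the labels. The series title places the study after a uterine disease that has resolved, within a cohort of 45 cows. Cows found with metritis early after calving had been given the antimicrobial ceftiofur, and the labels do not say which libraries came from them. All cows of both groups had received gonadotropin-releasing hormone (GnRH) at 53 ± 3 days and prostaglandin F2α at 60 ± 3 days. The follicle was emptied 72 h after the prostaglandin and just before the next GnRH injection, the one that would bring on an LH surge. The labels give blood as the tissue of all 16 libraries, which goes against their own protocol, and they do not tie a library to a cow, so that p-values measure only the spread between libraries.

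In the preovulatory follicle LH acts through its receptor LHCGR on mural granulosa cells and raises cyclic AMP. Those cells release the growth factors amphiregulin (AREG) and epiregulin (EREG), which activate the epidermal growth factor receptor on granulosa and cumulus cells. Cumulus cells then make hyaluronan with the synthase HAS2, TNFAIP6 and PTX3 help to cross-link it, and the cumulus expands before ovulation. The protease ADAMTS1 cuts versican in this matrix. RUNX1 and RUNX2 are transcription factors of the same response, RGS2 shortens signalling through G proteins, and SULT1E1 inactivates oestradiol by sulfation. At the same time granulosa cells lower aromatase (CYP19A1) and the receptor of follicle-stimulating hormone (FSHR).

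The libraries held 8111862 to 14348753 counts. Levels are given as CPM, a gene's counts in every 1000000 counts of the library, and 3 counts, taken as the limit of detection, equal 0.212 to 0.375 CPM. The libraries were of 2 kinds by INHA, the alpha subunit of inhibin and a granulosa marker. INHA lay above 1000 CPM in 9 libraries (treatment replicates 4, 5, 6 and 7 and control replicates 2, 3, 4, 7 and 8), at 1759 to 3041 CPM. It lay under 200 CPM in the other 7 (treatment replicates 1, 2 and 3 and control replicates 1, 5, 6 and 9), at 0.404 to 111 CPM. These kinds were defined from the data, not by the study. The monocyte and macrophage marker CD14 lay at 5.32 to 332 CPM in the 9 INHA-high libraries, against 1859 to 4031 CPM in the 7 INHA-low libraries, so the labelled granulosa identity held only for the 9. In RNA from a mixture, fewer cells of a type and less RNA per cell cannot be told apart.

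All measured genes of the list were read from 1 accession each. TNFAIP6 was NM_001007813.2, AREG NM_001099092.1, PTX3 NM_001076259.2, HAS2 NM_174079.2 and ADAMTS1 NM_001101080.1. RGS2 was read from NM_001075596.1, which RefSeq's gene table gives to LOC513055 with RGS2 as its synonym. The table holds a second gene under the symbol RGS2 that was not analysed here, so reads of the 2 copies may have been split and the RGS2 values are uncertain. RUNX1 was read from a single predicted transcript, XM_005202080.3, of the 7 in that table. It had 28 counts in all, at most 4 per library. SULT1E1 (NM_177488.3) had 21 counts in all, at most 5 per library. No difference between libraries was detectable at this depth for RUNX1 or SULT1E1, and the results below concern the other 6 genes, each with a mean of at least 1 CPM over the 9 INHA-high libraries and also over the 8 without treatment replicate 7.

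**Figure D1:**
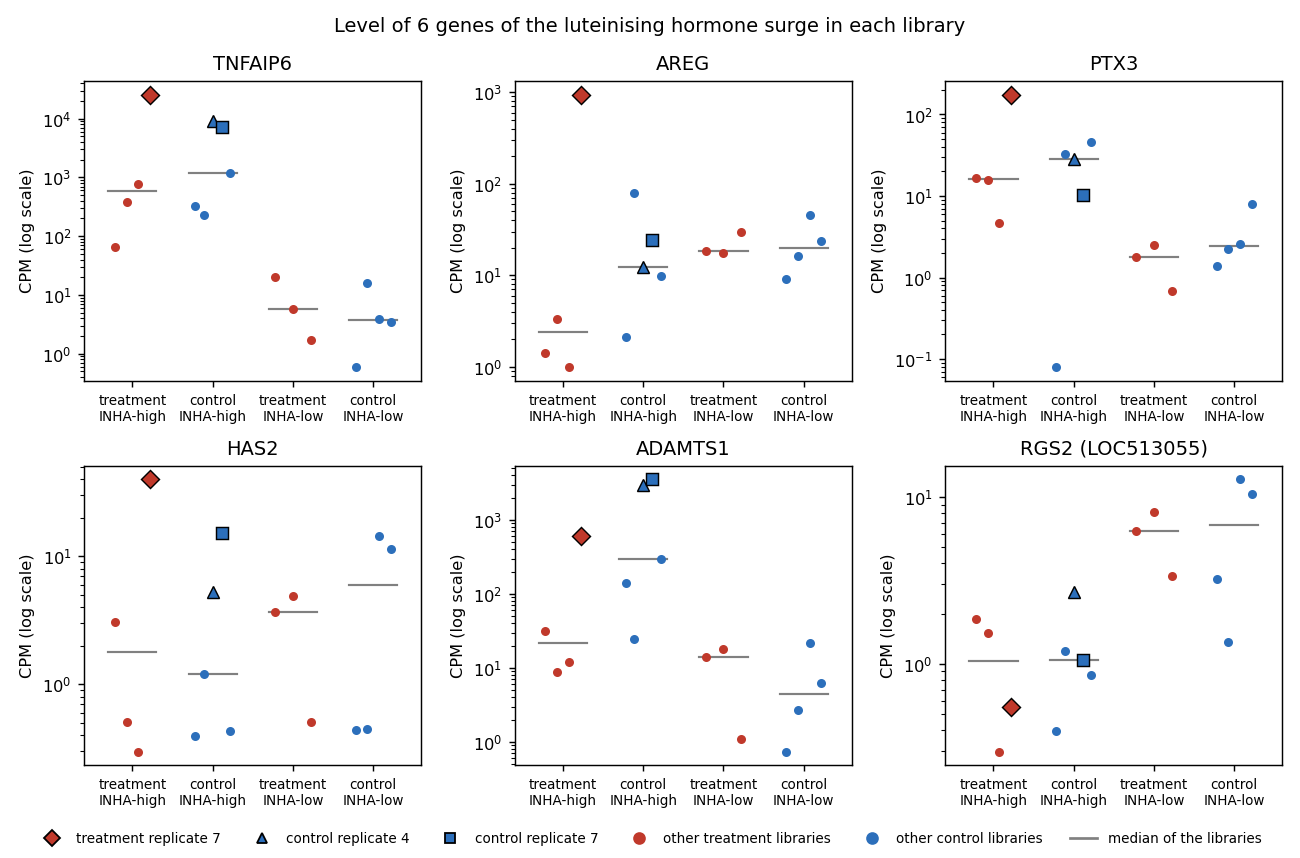
CPM of 6 genes on a log scale in each of the 16 libraries, split by group and by kind of library, with grey bars for medians. Treatment replicate 7 (diamond) was highest of the 9 INHA-high libraries for TNFAIP6, AREG, PTX3 and HAS2, while control replicates 4 and 7 (triangle and square) were highest for ADAMTS1.

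Among the INHA-high libraries treatment replicate 7 had been singled out beforehand, and the genes were chosen with earlier results of these data known. The counts that follow therefore describe this library and are not independent support. Treatment replicate 7 held the highest level of 4 of the 6 genes, namely the growth factor AREG, the hyaluronan synthase HAS2 and the matrix proteins TNFAIP6 and PTX3. The library with the highest level was treatment replicate 7 for 16.3% of the 9304 features with a mean of at least 1 CPM, and it was the lowest for 9.37% of them but for 0 of the 6 genes. For 5 of the 6 genes treatment replicate 7 lay at least 4-fold above the median of the other 8 libraries, where 7.64% of the features did (a median of 0 was replaced by 3 counts). With features chosen by their mean over those 8 libraries alone, these shares were 15.3% for the highest level and 6.59% for the 4-fold ratio. The median log2 ratio of the 6 genes was 4.45, and that of all features 0.06. With 1 library on one side there is no test of these ratios, and the intervals given with them cover counting error only.

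AREG is made by mural granulosa cells as a relay of the LH signal. It was at 940 CPM in treatment replicate 7 (exact Poisson interval, 95%, 923 to 957). In the other INHA-high treatment libraries AREG was at 1.43, 3.36 and 0.989 CPM (replicates 4, 5 and 6), and in the INHA-high control libraries it was at 2.14, 78.9, 12.2, 24.5 and 9.82 CPM (replicates 2, 3, 4, 7 and 8). Treatment replicate 7 was thus 11.9 times the next library, control replicate 3, and 143 times the median of the other 8. AREG was the only one of the 6 genes at least 4-fold above the highest of the other 8, where 1.06% of the features were. The 3 other treatment libraries lay below 4 of the 5 control libraries, and treatment replicate 5 lay above control replicate 2.

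HAS2 synthesises the hyaluronan of the expanding cumulus. It was the least abundant of the 5 genes that were high in treatment replicate 7, at 40.1 CPM (36.7 to 43.8) or 510 counts. In the other treatment libraries HAS2 was at 3.08, 0.508 and 0.297 CPM, and in the control libraries at 0.397, 1.2, 5.23, 15.1 and 0.432 CPM. Treatment replicate 7 was 2.66 times the next library, control replicate 7, and 47 times the median of the other 8. Of those 8 libraries 4 held at most 5 counts of HAS2, so that this median is imprecise.

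TNFAIP6 transfers heavy chains onto hyaluronan and so stabilises the cumulus matrix. It reached 25541 CPM (25453 to 25629) in treatment replicate 7, where 2.55% of all counts came from this gene. The other treatment libraries held 64.4, 375 and 781 CPM of TNFAIP6, and the control libraries 322, 233, 9088, 7198 and 1176 CPM. Treatment replicate 7 was 44.2 times the median of the other 8 and 2.81 times control replicate 4. Control replicates 4 and 7 formed a second level, more than 6 times above the remaining 6 libraries.

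PTX3, a pentraxin that binds TNFAIP6-modified hyaluronan, was at 175 CPM (168 to 182) in treatment replicate 7. It was at 16.5, 15.9 and 4.65 CPM in the other treatment libraries, and at 0.0793, 32.8, 28.6, 10.2 and 46.2 CPM in the control libraries. The ratio of treatment replicate 7 to the median of the other 8 was 10.8, and to the highest of them, control replicate 8, it was 3.79. Control replicate 2 held 1 count of PTX3, although its INHA, at 3041 CPM, was the highest of the 9.

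ADAMTS1 did not follow this order. It was at 603 CPM (589 to 616) in treatment replicate 7 and at 32.1, 8.75 and 11.9 CPM in the other treatment libraries. In the control libraries ADAMTS1 was at 143, 24.7, 2963, 3564 and 302 CPM. Treatment replicate 7 therefore ranked below both control replicates 4 and 7, at 0.169 times control replicate 7, although it was 6.9 times the median of the other 8. RGS2 lay between 0.297 and 2.69 CPM in the 9 libraries, with 0.551 CPM (0.221 to 1.13, 7 counts) in treatment replicate 7, which was within the range of the others.

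The spread of 5 of the 6 genes over these libraries was among the widest in the data. The SD of log2(CPM + 1) over the 9 libraries was 3.24 for ADAMTS1, 2.87 for AREG, 2.84 for TNFAIP6, 2.06 for PTX3 and 1.79 for HAS2, against a median of 0.72 over all features. These SDs lay between the 96.5th and the 99.9th percentile of the 9304 features. That of RGS2 was 0.5, at the 23.0th percentile. Without treatment replicate 7 the SD of ADAMTS1 was 3.36 (percentile 99.9), that of TNFAIP6 2.44 (99.4) and that of AREG 1.86 (97.2). PTX3 then had an SD of 1.75 (96.2) and HAS2 one of 1.31 (89.7).

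Treatment replicate 7 also differed from the other 8 in genes that the list does not hold. Of 14 measured genes listed as lowered after the surge, 7 were at least 4-fold below the median of the other 8 (all features, 4.45%). At least 4-fold above it were 0 of them (all features, 7.64%). The list holds 1 theca marker, CYP17A1, at 736 CPM against 1.21 to 700 CPM, with a ratio of 3.91. It was the only 1 of the 14 that was highest in treatment replicate 7. CYP19A1, which makes oestradiol, was at 276 CPM in treatment replicate 7 and at 8439 to 28576 CPM in the other 8, with no overlap and a ratio to the median of 0.0125. SLC35G1 was at 1.26 CPM, against 48.7 to 144 CPM. FSHR was at 110 CPM, against 361 to 543 CPM, and LHCGR was at 9.2 CPM, within the 0.659 to 79.5 CPM of the others. INHA, at 2395 CPM, was within the range of the others, but these libraries had been selected by INHA. GJA1 was within the range too, at 6183 CPM against 5672 to 13327 CPM, as was AMH, at 203 CPM against 187 to 452 CPM. Of 17 measured granulosa markers 5 were at least 4-fold below the median of the other 8. In all, 7 of the 17 were lowest in treatment replicate 7, so that not every granulosa marker was lowest there.

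Of 23 measured genes other than the members that LH is known to raise, 8 were at least 4-fold above the median of the other 8 in treatment replicate 7 and 2 were at least 4-fold below it, against 7.64% and 4.45% of all features. The median log2 ratio of this group was 1.05. RCAN1, an inhibitor of calcineurin, was at 206 CPM in treatment replicate 7, against 0.61 to 11.9 CPM in the other 8. OXT, the oxytocin precursor that bovine granulosa cells make as they luteinise, was at 274 CPM, against 3.96 to 53.7 CPM. STAR, the transporter that brings cholesterol to the steroid-making enzymes of the mitochondrion, was at 11.4 CPM, below the 19.1 to 291 CPM of the other 8, and the orphan nuclear receptor NR4A1 was at 6.77 CPM, against 0 to 156 CPM. Against the median of the other 8, STAR and NR4A1 thus lay on the other side from RCAN1 and OXT. For NR4A1 this rested on control replicates 4 and 7. Without them the median of the others was 5.73 CPM, below treatment replicate 7. PTGS2 and PGR, which belong to this group, were not analysed here.

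**Figure D2:**
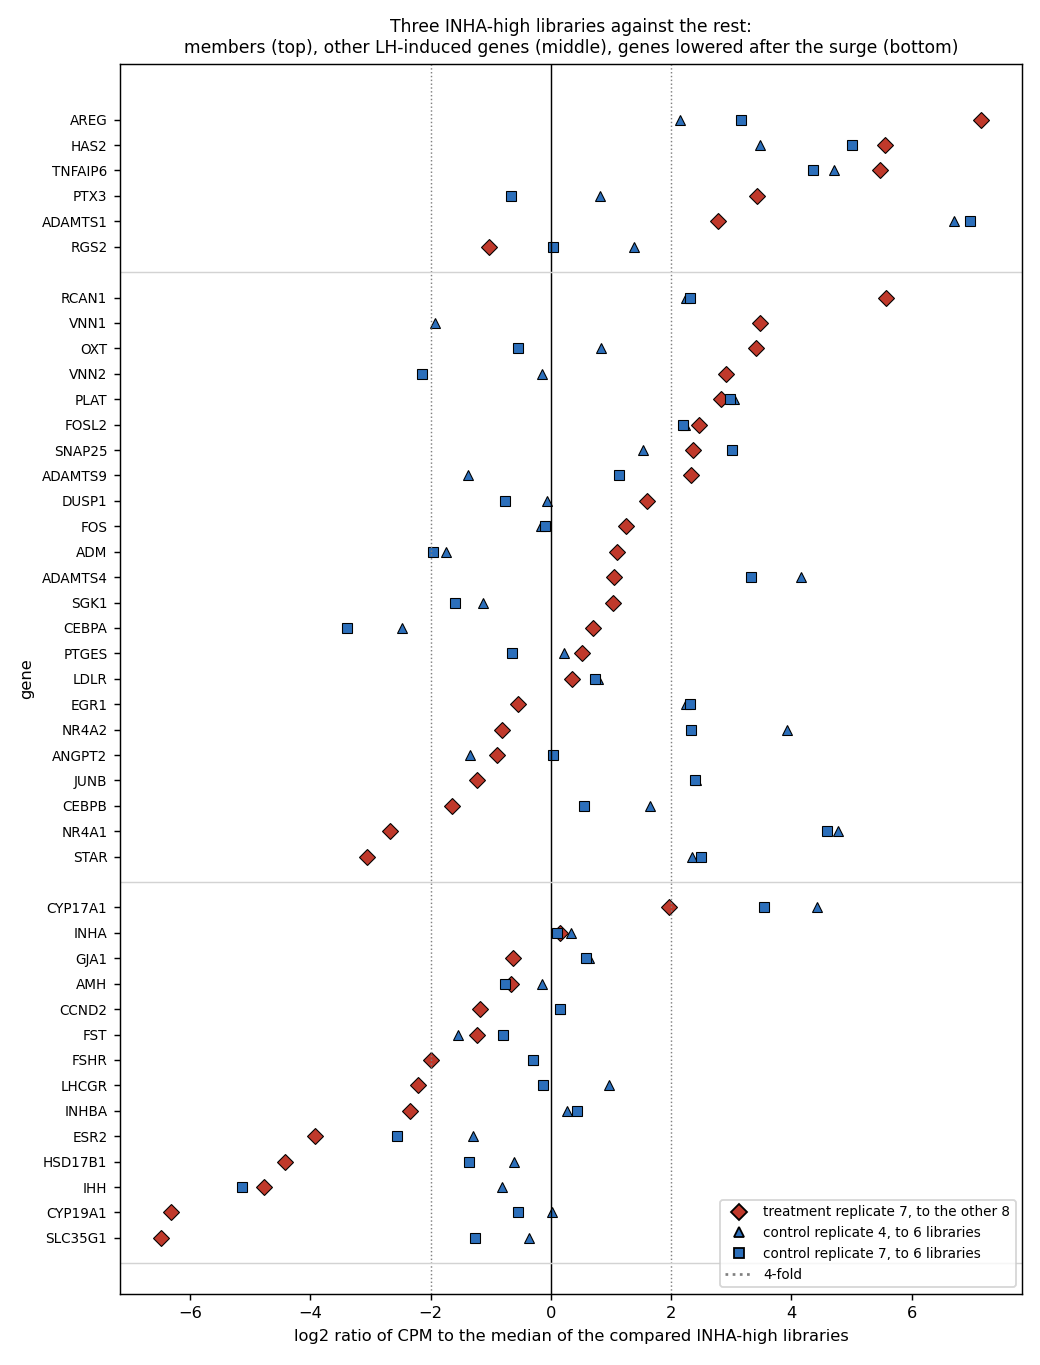
Log2 ratio of CPM in treatment replicate 7 to the median of the other 8 INHA-high libraries (diamonds), and in control replicates 4 and 7 to the median of the 6 libraries without these 3 (triangles and squares), for the 6 measured members (top), 23 other LH-induced genes (middle) and 14 genes lowered after the surge (bottom); a library at 0 has no symbol. CYP19A1 had a ratio of 0.0125 in treatment replicate 7 and of 1.01 and 0.681 in control replicates 4 and 7.

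The growth factor pathway around AREG gave a mixed picture in treatment replicate 7. The shares of all features beside which the next counts stand are again 7.64% above and 4.45% below. Of 9 measured genes of this group 3 were at least 4-fold above the median of the other 8 and 0 at least 4-fold below. SPRY2, a feedback inhibitor of receptor tyrosine kinases, was at 162 CPM, against 1.02 to 133 CPM. BTC, another ligand of the same receptor, was at 13.9 CPM, against 0.212 to 6.83 CPM, and the receptor gene ERBB3 was at 35.1 CPM, against 1.7 to 140 CPM. ERBB2 and the feedback inhibitor ERRFI1 had ratios to the median of 0.529 and 0.338. Of 10 measured genes of the hyaluronan matrix 3 were at least 4-fold above the median. The proteoglycan SDC1 was at 33.7 CPM, against 0.44 to 67.6 CPM. The protease ADAMTS15 was at 8.81 CPM, against 0 to 7.29 CPM, and its relative ADAMTS5 at 4.09 CPM, against 0 to 3.45 CPM with a median of 0. HAPLN3, a link protein, had a ratio of 2.04, and HMMR and LYVE1, which bind hyaluronan, had ratios of 0.458 and 0.531.

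Of 13 measured genes of cyclic AMP and G protein signalling 2 were at least 4-fold above the median of the other 8 in treatment replicate 7, where 7.64% of all features were. No test was made on so few genes. RGS16, a relative of RGS2, was at 56.2 CPM, against 0.238 to 25.3 CPM, and the transcription factor ATF3 was at 3.46 CPM, against 0 to 21.1 CPM. CREB1, the factor that cyclic AMP activates, had a ratio of 2.24, RGS4 had 0.557 and PRKAR2B, a regulatory subunit of protein kinase A, had 0.299. The RUNX partner CBFB had a ratio of 1.01, RUNX3 had 0.779 and the corepressor TLE1 had 0.774. In oestrogen sulfation PAPSS2, which makes the sulfate donor, had a ratio of 2.2, PAPSS1 had 0.953 and HSD17B4 had 0.773. None of the measured genes of these last 2 groups was 4-fold away from the median.

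Markers of other cells also differed in treatment replicate 7. Of 8 epithelial markers 6 were at least 4-fold above the median of the other 8 (all features, 7.64%), and their summed level was 2285 CPM, against 24.3 to 3843 CPM. KRT18 was at 948 CPM, against 3.17 to 281 CPM. The summed level of 9 endothelial markers was 136 CPM, against 3.97 to 35.6 CPM, with 2 of 3 measured ones at least 4-fold above the median. Nearly all of that sum came from KDR and VWF, while the defining markers PECAM1 and CDH5 had 0 counts in treatment replicate 7. The 8 neutrophil markers summed to 178 CPM, of which S100A8 made 171 CPM, against 1.83 to 115 CPM in the other 8 libraries. At least 4-fold above the median were 3 of 6 measured ones. The 13 T and NK cell markers summed to 158 CPM, against 4.92 to 244 CPM, with 3 of 10 measured ones at least 4-fold above the median. The 12 monocyte and macrophage markers summed to 397 CPM, against 27.7 to 2040 CPM, with 0 of 10 measured ones at least 4-fold above the median. The 9 theca markers summed to 1101 CPM, against 186 to 2955 CPM, with 1 of 7 measured ones at least 4-fold above the median. That marker was LUM, at 122 CPM with a ratio of 10.4. CYP17A1, with a ratio of 3.91, was at 736 CPM, against 1.21 to 700 CPM, and COL1A2 and COL3A1 had ratios of 0.533 and 0.679. Whether these cells had a part in the high AREG, HAS2, TNFAIP6 and PTX3 was not tested. In the INHA-low libraries monocyte and macrophage markers summed to 7830 to 18814 CPM. TNFAIP6 was at most 20.2 CPM there, PTX3 at most 7.87 CPM, AREG at most 45.3 CPM and HAS2 at most 14.3 CPM. These values are not a test of the part of any cell type.

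Control replicates 4 and 7 shared a second pattern, which was noticed after the values were seen. Both lay at least 4-fold above the median of the 6 libraries without these 2 and treatment replicate 7 for ADAMTS1, TNFAIP6, HAS2 and AREG, that is for 4 of the 6 genes. Of all features 2.49% met the same condition. Both also lay above all of those 6 libraries for ADAMTS1, TNFAIP6 and HAS2, which held for 5.56% of features. The ratios in control replicates 4 and 7 were 104 and 125 for ADAMTS1, 26.1 and 20.6 for TNFAIP6, 11.1 and 32.1 for HAS2 and 4.45 and 8.91 for AREG. PTX3 had ratios of 1.77 and 0.632 and RGS2 of 2.6 and 1.02. Unlike treatment replicate 7, these 2 libraries kept CYP19A1, at 22402 and 15060 CPM, and FSHR, at 382 and 381 CPM. Other granulosa markers were low in them. Of 17 measured ones 2 were at least 4-fold below the median of the 6 in both (all features, 4.59%) and 0 at least 4-fold above. These were FOXL2, at 41.1 and 9.41 CPM (ratios of 0.195 and 0.0445), and GATM, at 15.5 and 7.62 CPM (0.21 and 0.103). FOXL2 was at 34 CPM in treatment replicate 7. The theca markers summed to 838 and 646 CPM in them, against 186 to 2955 CPM in the 6. Of 7 measured theca markers 1 was at least 4-fold above the median of the 6 in both, CYP17A1 at 700 and 378 CPM, while INSL3 had ratios of 1.02 and 0.859, COL1A1 of 0.383 and 0.335 and COL3A1 of 0.115 and 0.261. The part of theca cells in this pattern was not tested.

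Of the 23 other LH-induced genes 9 were at least 4-fold above the median of the 6 in both control libraries and 1 was at least 4-fold below it, against 2.49% and 4.59% of all features. The genes named here were chosen after their values were seen. NR4A1 was at 156 and 138 CPM in control replicates 4 and 7, with ratios to the median of the 6 of 27.3 and 24.2. STAR was at 208 and 230 CPM (5.08 and 5.62) and the immediate early gene JUNB at 2344 and 2308 CPM (5.32 and 5.24). ADAMTS4, which also cuts versican, was at 1616 and 911 CPM (17.8 and 10), and PLAT, the tissue plasminogen activator, at 3001 and 2872 CPM (8.22 and 7.87). NR4A1, STAR and JUNB were thus high in these 2 libraries, where treatment replicate 7 had ratios to the median of the other 8 of 0.157, 0.12 and 0.426. That median includes the 2 control libraries. Against the median of the 6, treatment replicate 7 was at 6.77 against 5.73 CPM for NR4A1. For STAR it was at 11.4 against 40.9 CPM and for JUNB at 295 against 441 CPM. PLAT was high in all 3 libraries, with 3417 CPM in treatment replicate 7. RCAN1, which had the highest ratio of these genes in treatment replicate 7, was at 11.3 and 11.9 CPM in the 2 control libraries (4.74 and 5). CEBPA, a transcription factor of the LH response, lay on the other side, at 1.06 and 0.568 CPM (0.179 and 0.0959). SGK1, a kinase, was at 1.34 and 0.973 CPM (0.455 and 0.33). CEBPA was at 76.5 to 363 CPM in the INHA-low libraries. Monocyte and macrophage markers summed to 148 and 313 CPM in control replicates 4 and 7, against 27.7 to 2040 CPM in the 6. The part of these cells in the level of CEBPA was not tested.

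**Figure D3:**
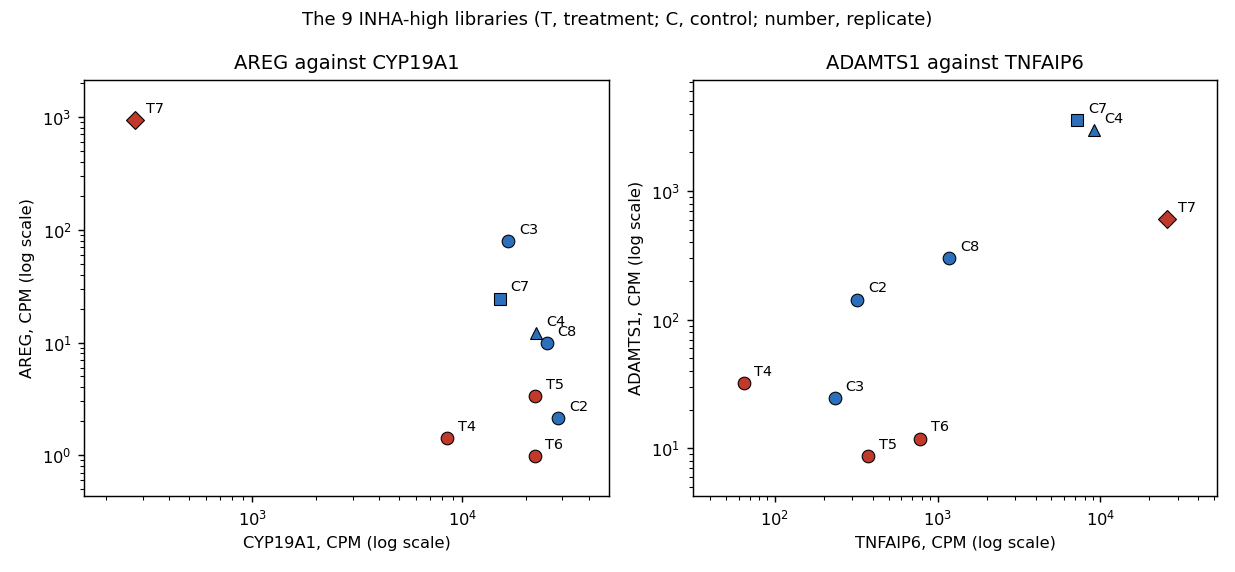
AREG against CYP19A1 (left) and ADAMTS1 against TNFAIP6 (right), CPM on log scales, for the 9 INHA-high libraries (T, treatment; C, control; number, replicate). T7 alone combined high AREG (940 CPM) with low CYP19A1 (276 CPM), whereas C4 and C7 combined high ADAMTS1 and TNFAIP6 with CYP19A1 at 22402 and 15060 CPM.

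TNFAIP6 and ADAMTS1 had the highest Pearson correlation among the members, over the 9 INHA-high libraries and on log2(CPM + 1) values. Pearson's r was 0.78 (exact permutation p = 0.0172) and Spearman's rho 0.67 (exact permutation p = 0.0589). Of 21 relations computed, between the 6 genes and with CYP19A1, none passed adjustment, and this one had adjusted p-values of 0.117 and 0.28. Without treatment replicates 4 and 7, the 2 libraries farthest from the median of TNFAIP6, r was 0.87. That value still holds control replicates 4 and 7, which were high for both genes. No r was computed without them, so how far the relation rests on them is not known. AREG and CYP19A1 had r = -0.78 (exact permutation p = 0.0477, adjusted p = 0.146) and rho = -0.35 (exact permutation p = 0.359). Without treatment replicate 7 their r was -0.04, so that the relation rested on that library. HAS2 and CYP19A1 had r = -0.79 (exact permutation p = 0.0157, adjusted p = 0.117) and rho = -0.67 (exact permutation p = 0.0589, adjusted p = 0.28). Their r was -0.50 and rho -0.52 without treatment replicate 7, and r was -0.51 without it and control replicate 7, the 2 libraries farthest from the median of HAS2. Within the 4 treatment and the 5 control libraries there were too few for a correlation.

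The genes most like the members' mean z-score over the 9 libraries, of 7831 genes with a symbol, were SERTAD1 (r = 0.95), TNFRSF12A (0.95), CLIC5 (0.94), SPON2 (0.94) and FOSL1 (0.94). Over the 8 libraries without treatment replicate 7 they were TNFRSF12A (0.96), CLIC5 (0.96), BAMBI (0.95), CAVIN1 (0.94) and SERTAD1 (0.94). TNFRSF12A, the receptor of the cytokine TWEAK, was at 118 CPM in treatment replicate 7, at 11.6 and 14.3 CPM in control replicates 4 and 7, and at most 7.66 CPM in the other 6. CLIC5 was at 489 CPM in treatment replicate 7, at 581 and 464 CPM in control replicates 4 and 7, and at most 41.6 CPM in the other 6. FOSL1, a subunit of the AP-1 factor, was at 72.6 CPM, at 41 and 59.3 CPM, and at most 5.83 CPM in the same libraries. These values describe likeness of level only.

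The members were next set against the 7 INHA-low libraries. TNFAIP6 was higher in all 9 INHA-high libraries than in any INHA-low library, at 64.4 to 25541 CPM with a median of 781, against 0.59 to 20.2 CPM with a median of 3.96. A range in the 9 libraries wholly above that in the 7 was found for 6.14% of 9662 features, and TNFAIP6 was the only one of the 6 genes with it. ADAMTS1 was at 8.75 to 3564 CPM (median 143), against 0.737 to 21.6 CPM (median 6.25), and PTX3 at 0.0793 to 175 CPM (median 16.5), against 0.675 to 7.87 CPM (median 2.25). For both, 7 of the 9 INHA-high libraries lay above all 7 INHA-low libraries.

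AREG and HAS2 had lower medians in the INHA-high libraries, with ranges that overlapped. AREG was at 0.989 to 940 CPM (median 9.82) in the 9 INHA-high libraries, against 9.06 to 45.3 CPM (median 18.4) in the 7 INHA-low libraries. In 4 of the 9 INHA-high libraries AREG lay below all INHA-low libraries, and in 2 it lay above all of them. HAS2 was at 0.297 to 40.1 CPM (median 1.2), against 0.442 to 14.3 CPM (median 3.67). RGS2 was at 0.297 to 2.69 CPM (median 1.05), against 1.35 to 12.8 CPM (median 6.23), with 6 of the 9 INHA-high libraries below all INHA-low ones. A range in the 9 wholly below that in the 7 was found for 11.4% of features and for 0 of the 6 genes.

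Treatment was then compared with control, the question of the study's title, with edgeR's quasi-likelihood test over all features. None of the 6 genes passed an adjusted p of 0.05, over all 16 libraries or within either kind of library, and 0% of the features tested passed in each of the 3 fits. At an unadjusted p under 0.05 there were 163 of 9653 features over the 16 libraries, 433 of 9272 in the 9 INHA-high and 259 of 9912 in the 7 INHA-low libraries. DESeq2 called 3, 21 and 1 features in these sets, and none of the 6 genes among them. It gave no p for AREG in the INHA-high libraries. Of the 6 genes 4 had higher and 2 had lower fitted values in treatment over the 16 libraries, with a median log2 fold change of 0.37, against 0.01 over all features.

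Over the 16 libraries AREG had a log2 fold change of 2.55 ± 1.2 (SE, 7 treatment and 9 control libraries, edgeR, adjusted p = 1) and ADAMTS1 one of -3.49 ± 1.83 (edgeR, adjusted p = 1). TNFAIP6 was at 0.5 ± 1.89, PTX3 at 1.03 ± 1.15, HAS2 at 0.24 ± 1.11 and RGS2 at -0.32 ± 0.75. Treatment replicate 7 set the direction of 4 of these values. Without it AREG was at -1.16, TNFAIP6 at -3.72, PTX3 at -1.11 and HAS2 at -1.69, and ADAMTS1 was at -6.38 (unadjusted p = 0.00642, edgeR, adjusted p = 1).

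In the 9 INHA-high libraries the fitted log2 fold changes were 3.08 ± 1.78 (SE) for AREG, -3.55 ± 1.75 for ADAMTS1, 0.49 ± 1.57 for TNFAIP6, 1.07 ± 1.21 for PTX3, 0.79 ± 1.49 for HAS2 and -0.43 ± 0.8 for RGS2 (4 treatment and 5 control libraries, edgeR, adjusted p from 0.983 to 0.988). Without treatment replicate 7 they were -3.76 for AREG (unadjusted p = 0.0089, edgeR, adjusted p = 0.631), -6.83 for ADAMTS1 (unadjusted p = 0.00477, edgeR, adjusted p = 0.631), -3.55 for TNFAIP6 and -2.36 for HAS2. In these 8 libraries AREG was at 0.989 to 3.36 CPM in treatment and 2.14 to 78.9 CPM in control, and ADAMTS1 at 8.75 to 32.1 CPM in treatment and 24.7 to 3564 CPM in control, so that both pairs of ranges overlapped. The two-sided exact permutation test of mean log2(CPM + 1) gave p = 0.0714 for AREG and p = 0.0714 for ADAMTS1, where the smallest p that 56 splits allow is 0.0179. Without control replicates 4 and 7 instead, TNFAIP6 was at 3.59, HAS2 at 4.1 and ADAMTS1 at 0.1.

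**Figure D4:**
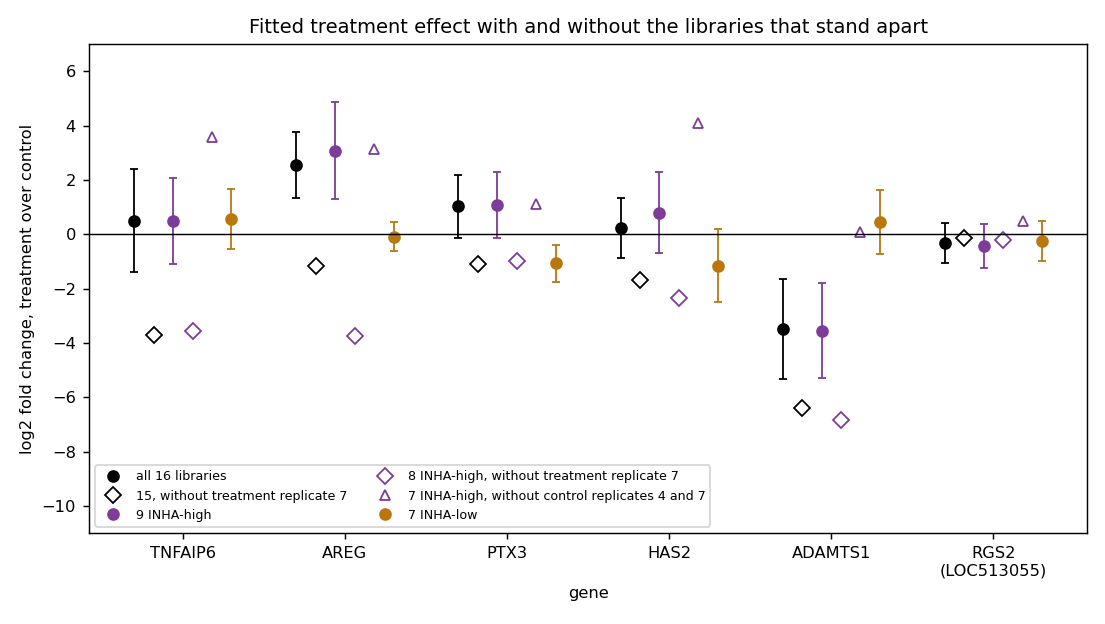
Fitted log2 fold change, treatment over control, of 6 genes in all 16 libraries, in the 9 INHA-high and in the 7 INHA-low libraries (filled circles, bars are SE), and without treatment replicate 7 or without control replicates 4 and 7 (open symbols, no bars). For TNFAIP6, AREG, PTX3 and HAS2 the value over the 16 libraries was above 0 with treatment replicate 7 and below 0 without it.

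In the INHA-high libraries monocyte and macrophage markers summed to 397 to 2040 CPM in treatment and 27.7 to 1006 CPM in control, and 9 of 10 tested had higher fitted values in treatment (median log2 fold change 1.5). T and NK cell markers summed to 14.8 to 214 CPM in treatment and 4.92 to 244 CPM in control, with 9 of 10 higher, and pan-leukocyte markers to 295 to 1155 CPM in treatment and 186 to 1246 CPM in control, with 7 of 8 higher. Theca markers summed to 186 to 1101 CPM in treatment and 430 to 2955 CPM in control, with 1 of 7 higher and 6 lower (median -1.51). None of these markers passed the test, and the part of these cells in the values above was not tested. In the 7 INHA-low libraries, with 3 treatment and 4 control libraries, none of the 6 genes passed the test (edgeR). AREG was at 17.6 to 29.4 CPM in treatment and 9.06 to 45.3 CPM in control, with a log2 fold change of -0.09 ± 0.54 (SE). The other 5 genes lay between -1.15 ± 1.34 (HAS2) and 0.57 ± 1.1 (TNFAIP6), and the ranges of the groups overlapped for each of the 6 genes. The difference between the 2 kinds of library in the effect of treatment, tested as an interaction, was 3.22 ± 2.28 (SE) for AREG and -4.01 ± 2.3 for ADAMTS1 (edgeR, adjusted p = 0.938 and 0.93), and none of the 6 genes passed.

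Among the other pathway genes 0 passed the test in any of the 3 fits. In the 9 INHA-high libraries 8 of 23 tested LH-induced genes had higher and 15 lower fitted values in treatment (median log2 fold change -0.85, against 0.04 over all features). Of 14 tested genes lowered after the surge, 1 had a higher and 13 a lower fitted value (median -0.55). Over all features 4909 of 9272 had a higher fitted value. For 7 of the 14 genes treatment replicate 7 lay at least 4-fold below the median of the other 8 libraries. The count of 13 includes that library and was not made without it, so it does not describe the other treatment libraries. For genes of growth factor signalling the counts were 5 higher and 5 lower (median -0.27), and for those of the hyaluronan matrix 5 higher and 4 lower (median 0.25).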

How the data were processed

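Each library came as 1 deposited file of raw counts, with RefSeq accessions in rows, and an accession that a file does not list was set to 0. Poly(A) RNA had been taken from 200 ng of total RNA (integrity number of at least 7) and amplified over 12 cycles in an unstranded library kit, per the labels' protocols, so reads from antisense and overlapping genes are mixed. Cutadapt, Bowtie2 and SAMtools appear in the submitters' processing notes. The sources used here do not give their versions, the genome build or the handling of multiply matching reads. Without molecular identifiers, intervals reflect counting error only.

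The 133 genomic records among 27306 accessions, with 0.712 to 1.92% of a library's counts, were dropped. Gene names came from the RefSeq gene table of assembly ARS-UCD2.0, which named 18973 of 27173 transcript accessions when versions were ignored. Counts were added up per gene, and transcripts without a name stayed as features. CPM were computed from the sum of these counts with no other scaling. Neither sequences nor coordinates are printed.

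For treatment against control, edgeR 4.0.16 (R 4.3.3) was run with its robust quasi-likelihood test, TMM factors of 0.614 to 1.14, its low-count filter by group and Benjamini-Hochberg adjustment at 0.05. The code was first run on simulated counts with planted changes. Their spread between libraries was set alike for every gene, without kinds of library. That run therefore does not show which changes the fits could have found in these data. The SE was taken as the size of the log2 fold change over the square root of F. The labels do not say that replicate numbers pair the libraries. The correlation of the deviations of same-numbered libraries lay between -0.60 and 0.60. It was above 0 where both libraries were of the same kind by INHA and below 0 where the kinds differed. It therefore followed the kind of library and cannot decide whether the numbers pair libraries. The members, the lists (233 genes, 196 measured) and the split by INHA were chosen with earlier results of these data known. At most the 3 genes with the highest and the 2 with the lowest ratio in treatment replicate 7 are named per list by rule, together with the members, checks of the kind of library and the 5 genes most like the members. Any other gene was picked with its values in view. The alternatives were DESeq2 1.42.0, limma-voom (limma 3.58.1) with sample weights, other scalings and filters, a replicate block, counts per accession, exact permutation tests and each library left out. The fits without control replicates 4 and 7 were chosen after the data were seen.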

Additional observations from a re-analysis of the deposited data

Results flagged for a closer look

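AREG in treatment replicate 7, at 940 CPM, lay far from the other INHA-high treatment libraries, which were at 0.989 to 3.36 CPM. On the log2(CPM + 1) scale the gap to the next library was 0.873 of the whole range of the 4 libraries. Among 30 overlapping sets of libraries examined (6 genes in treatment and control, over all libraries and within a kind of library) this was 1 mark, and chance marks about 1 in 20, so the mark adds no support. Treatment replicate 7 had also been singled out beforehand.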

How the results depend on the processing

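None of the 6 genes passed the threshold in 324 alternative values with an adjusted p, the lowest being 0.239, or in 18 exact permutation tests, the lowest p being 0.143. Of these 342 values 48 had the opposite direction. DESeq2 gave no p for AREG in the INHA-high libraries, which is not among them. The exact permutation tests over the 8 INHA-high libraries without treatment replicate 7 are not among them either, and their lowest p was 0.0714. DESeq2 called 3 features over the 16 libraries, 21 in the INHA-high and 1 in the INHA-low libraries, where edgeR called 0. The cause of the changes below was not tested, except that fewer libraries entered the fits that left libraries out. All values are log2 fold changes, treatment over control.

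Over the 16 libraries DESeq2 gave -0.22 for TNFAIP6 and -1.03 for AREG. Limma-voom with sample weights gave -0.60 for AREG, -0.36 for PTX3 and 0.15 for RGS2. The difference in mean log2(CPM + 1) was -0.07 for TNFAIP6 and -0.20 for AREG. In the 9 INHA-high libraries limma-voom gave -2.10 for TNFAIP6, -2.33 for AREG and -0.49 for HAS2, and the difference in means was -0.76 for TNFAIP6 and -0.39 for AREG. In the 7 INHA-low libraries limma-voom gave 0.58 for HAS2 and 0.40 for RGS2, and the difference in means was 0.08 for AREG and 0.07 for RGS2.

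With the replicate block, which pairs libraries that share only a number, 0 features passed over the 16 and in the 9 libraries. AREG was at -0.65 and RGS2 at 0.07 over the 16, and TNFAIP6 at -3.17 and HAS2 at -0.17 in the 9. In the 7 INHA-low libraries no paired analysis was possible because the groups share 1 number.

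Without control replicates 4 and 7, ADAMTS1 was at 0.49 over the 16 libraries, and in the 9 ADAMTS1 was at 0.10 and RGS2 at 0.49. Without treatment replicate 7 as well, TNFAIP6 was at -0.23, AREG at -1.10, PTX3 at -0.79 and HAS2 at -0.92 over the 16, and TNFAIP6 at -0.47, AREG at -3.71, PTX3 at -0.94 and RGS2 at 0.71 in the 9.

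Leaving out 1 library at a time over the 16 gave -3.72 to 1.26 for TNFAIP6, -1.16 to 2.92 for AREG, -1.11 to 1.42 for PTX3, -1.69 to 0.88 for HAS2, -6.38 to -2.39 for ADAMTS1 and -0.73 to 0.17 for RGS2. In the 9 it gave -3.55 to 1.06, -3.76 to 3.88, -1.0 to 1.45, -2.36 to 2.40, -6.83 to -2.65 and -0.79 to 0.15 for the same genes in this order. In the 7 it gave -0.70 to 1.76, -0.44 to 0.46, -1.49 to -0.35, -1.69 to -0.41, -0.10 to 1.78 and -0.58 to 0.26. The lowest values of the first 5 genes over the 16 and in the 9 came without treatment replicate 7.

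The ratio of AREG in treatment replicate 7 was 143 to the median of the other 8, 658 to that of the 3 treatment and 76.8 to that of the 5 control libraries. Depth limits RUNX1 and SULT1E1, and HAS2 and RGS2 in libraries with few counts.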
